A study of Mus musculus with 21 samples.

Results

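NF-kB is a family of transcription factors that sit in the cytoplasm of resting T cells and enter the nucleus when the cell is stimulated. The genes described here are the 5 DNA-binding subunits (Relb, Rel, Rela, Nfkb1, Nfkb2), 3 IkB proteins that hold them back (Nfkbia, Nfkbib, Nfkbie) and Ikbkb, a kinase that marks IkB proteins for destruction. They make 9 of the 12994 genes measured, were picked by name, and were all found. The set was built around Relb, which was selected because its RNA differed between the housing conditions in CD4+ T cells of these same samples, so that every value from the CD4+ comparison of environments is given as a description and carries no test.

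Spleen T cells of female C57BL6/J mice were sorted as CD45+ CD11b- CD3+ CD4+ (LT4 in the labels) or CD8+ (LT8) cells, and their RNA was sequenced with unique molecular identifiers (UMIs), tags that let each captured molecule be counted once. Mice spent 4 weeks, starting 4 weeks after birth, in an enriched environment (EE, a cage of 9120 cm2 with 12 to 15 mice, running wheels and other objects that were exchanged regularly) or a standard environment (SE, a cage of 666 cm2 with 5 or 6 mice and no objects). There were 6 EE and 5 SE samples of CD4+ T cells and 6 EE and 4 SE samples of CD8+ T cells, 21 in all, from 12 mice of which 9 gave both. Per the labels, the analysed mice of an environment shared a cage, and an effect of the cage cannot be told apart from that of the housing. No allele or agent is named for any group.

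In the classical arm of the pathway, signals from the T cell receptor or from TNF receptors reach a kinase complex that contains Ikbkb, the IkB proteins are degraded, and dimers of Rela or Rel with the p50 product of Nfkb1 enter the nucleus. In the alternative arm, receptors such as the lymphotoxin and CD40 receptors stabilize another kinase, the Nfkb2 precursor is trimmed to p52, and the partner of p52 is Relb. Genes for IkB proteins and for several subunits are themselves known targets of NF-kB, so that the pathway feeds back on itself.

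A kappaB site is the short DNA element that NF-kB dimers bind. RefSeq promoters (GRCm38.p6) were listed for 6 of the 9 genes, and the kappaB consensus, a pattern of 10 letters searched on both strands of the 250 bases before each start, was found for 4 of them, Rel, Nfkbia, Nfkbie and Nfkb2, but not for Rela or Nfkbib. Over all genes with a listed promoter, 1204 of 27025 (4.455%) had a match. Counted by promoter, 6 of the 8 listed for these genes held the pattern, 3 of the 8 being those of Nfkb2, against 1281 of 32851 (3.899%). The stretches of Rel, Nfkbia and Nfkbie lie wholly before the annotated gene and are printed to show the element through which the family acts on its own members, with the letters of a match in capitals. For Rel a further match on the opposite strand begins 1 base on, and the c after its capitals belongs to it. Each is written 5′ to 3′ on the strand of its gene, which is the minus strand for Rel (chr11:23771032-23771081) and Nfkbia (chr12:55492648-55492696) and the plus strand for Nfkbie (chr17:45555574-45555623).
Rel: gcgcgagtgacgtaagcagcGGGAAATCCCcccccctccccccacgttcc
Nfkbia: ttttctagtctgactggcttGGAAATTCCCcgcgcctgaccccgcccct
Nfkbie: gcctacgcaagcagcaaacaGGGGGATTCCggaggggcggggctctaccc
A match describes the letters of the window and does not show that a factor was bound in these cells. The RNA of the genes that carry it is given below with that of the others.

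The deposited values are molecule counts divided by a size factor per sample (normalized counts). Total molecules ranged from 145546 to 221454 per sample, with 9302 to 10137 genes detected, and all 46 pairs of samples of the same group differed by more than sampling noise. As a check of the labels, Cd4 had a mean of 58.4 normalized counts in CD4+ and 0.374 in CD8+ samples. The means of Cd8a were 0.784 in CD4+ and 98.4 in CD8+ samples, and those of Cd8b1 3.625 and 205. CD4+ samples gave 0 to 3 molecules of Cd8a and 1 to 10 of Cd8b1. Some gave both, such as that of SE mouse 1 with 3 and 5. RNA of B cells was present in CD4+ samples: all 14 B cell markers were detected there, with summed normalized counts of 236 to 359 in EE and 41.2 to 503 in SE, against 34.95 to 118 in CD8+ EE and 41.3 to 50.3 in CD8+ SE samples, in which Ms4a1, Ebf1 and Blk were at 0. Of 14 myeloid and dendritic markers 6 were in the table, summing to 13.3 to 64.1, and the only NK marker in it, Klrb1c, was at or near 0. Red cell and platelet markers summed to 578 in CD8+ EE mouse 6 and 1028 in CD8+ SE mouse 3 and to at most 26.7 elsewhere. In sorted pools, fewer cells that express a gene and less RNA of it per cell cannot be told apart.

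All 9 genes passed the filter of a mean normalized count above 2 in each comparison, and all were measured from few molecules. Nfkbia gave 31 to 87 molecules per sample, Ikbkb 14 to 32, Relb 3 to 25, Nfkb2 1 to 13 and Nfkbie 0 to 9. The log2 differences below were taken after adding 1 to each normalized count, which weighs most on genes with so few molecules. The plot of normalized counts shows each gene in all 4 groups.

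**Figure D1:**
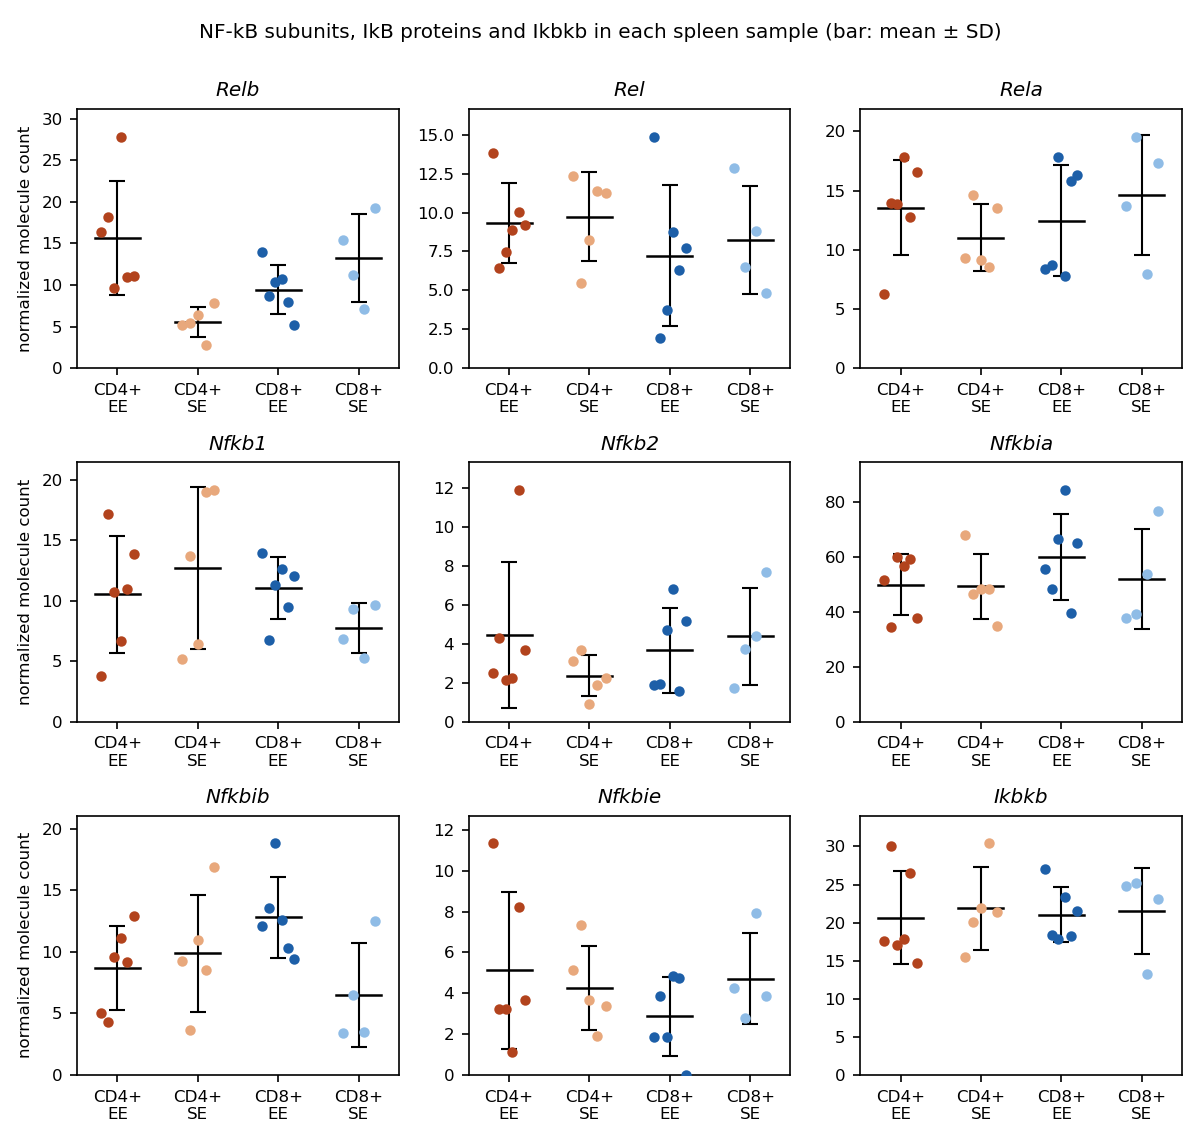
Normalized molecule counts (vertical axes, linear and starting at 0, with a scale of their own per gene) of the 9 genes in CD4+ and CD8+ T cells of EE and SE mice. Points are samples and bars are the mean ± SD; for Relb the 6 CD4+ EE samples (9.62 to 27.8) lie above the 5 CD4+ SE samples (2.85 to 7.88), and in the other 8 panels the CD4+ EE and SE samples overlap.

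Relb, the subunit of the alternative arm, lies on chromosome 7 of GRCm38 from 19606217 to 19629438 on the minus strand (ENSMUSG00000002983). In CD4+ T cells its normalized count was 16.4, 18.2, 9.62, 27.8, 11.0 and 11.1 in EE mice 1 to 6. In CD4+ T cells of SE mice 1, 3, 4, 5 and 6 it was 5.15, 5.49, 6.40, 2.85 and 7.88. These are the values by which Relb was selected: every EE sample lay above every SE sample, with means of 15.7 ± 6.86 (SD, n = 6) and 5.55 ± 1.84 (SD, n = 5), a log2 difference of 1.31 with a standard error of 0.33. That standard error takes no account of the selection. The molecules behind them numbered 9 to 25 in EE and 3 to 7 in SE samples. Within EE the variance was 2.83 times what counting alone would give, and within SE 0.621 times, where the median gene had 1.39 and 1.54. With any 1 of the 11 samples left out, the log2 difference lay between 1.13 and 1.43.

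Markers of antigen-experienced T cells had, like Relb, a higher median in CD4+ EE than in CD4+ SE samples. The mean was higher in EE for 8 of their 10 genes, among them S100a10 (120 against 71.2), Ccl5 (70.9 against 23.6) and Lgals1 (87.8 against 58.9), and lower for Cd44 (7.61 against 9.21) and Id2 (23.8 against 25.7). The genes were all detected and summed to 243 to 543 normalized counts in EE (median 432) and 181 to 288 in SE (median 272). The naive markers summed to 512 to 592 in EE and 560 to 615 in SE, and regulatory T cell markers to 19.4 to 81.5 and 20.9 to 80.5. In EE mice 1 to 6 the antigen-experienced sum was 392, 543, 328, 520, 472 and 243. EE mouse 4, which had the highest Relb, also had the highest myeloid and dendritic sum of its group, at 56.8 against 16.4 to 31.1 in the other EE mice. The highest such sum of all CD4+ samples, 64.1, was that of SE mouse 3, whose Relb was 5.49. The part of these cells in the Relb values was not tested. The B cell sum overlapped between the environments (236 to 359 in EE and 41.2 to 503 in SE), and its part in the Relb values was not tested.

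In CD8+ T cells the order of the environments was the other way round for Relb. EE mice 1 to 6 had 14.0, 8.70, 10.3, 10.7, 7.91 and 5.15, and SE mice 1, 2, 3 and 6 had 15.4, 11.2, 7.07 and 19.2. The groups overlapped, with means of 9.46 ± 2.97 (SD, n = 6) and 13.2 ± 5.26 (SD, n = 4). The log2 difference, EE minus SE, was -0.41 (95% interval -1.06 to 0.23, fold 0.751), and it did not pass the limma test (adjusted p = 0.9634). It was -0.22 without SE mouse 6, -0.27 without EE mouse 6 and -0.66 without SE mouse 3, and without the 2 CD8+ libraries with red cell RNA it was -0.52 (limma adjusted p = 0.9264). The antigen-experienced sum had a higher median in EE in these cells too, with 165 to 323 in EE (median 279.9) and 133 to 276 in SE (median 209.9). The mean of Ccl5 was 84.2 in EE against 33.2 in SE. Means were higher in EE by far less for S100a4, S100a10, Ahnak and Id2, and lower for Cd44, S100a6, Lgals1, Itgb1 and Cxcr3. Across the 4 groups Relb was highest in CD4+ EE, then CD8+ SE, CD8+ EE and CD4+ SE, a span of 2.82-fold between the outer means, and the ranges of neighbours in that order overlapped. Whether the difference between EE and SE itself differed between CD4+ and CD8+ cells was not tested, since the CD4+ part of it selected the gene.

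The 9 mice with both populations allowed the values to be set side by side within an animal, as a description, since the CD4+ values are those that selected Relb. In EE, Relb was higher in CD4+ than in CD8+ cells of 5 of 6 mice, mouse 3 being the exception, with differences of -0.722 to 17.2 normalized counts (median 4.49). In SE, it was lower in CD4+ cells of all 3 mice, with differences of -11.3 to -1.57. Averaged over the environments, the CD4+ minus CD8+ difference was -0.23 on the log2 scale, and with the mouse as a replicate block, which rests on the 9 mice with both, 0.10.

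**Figure D2:**
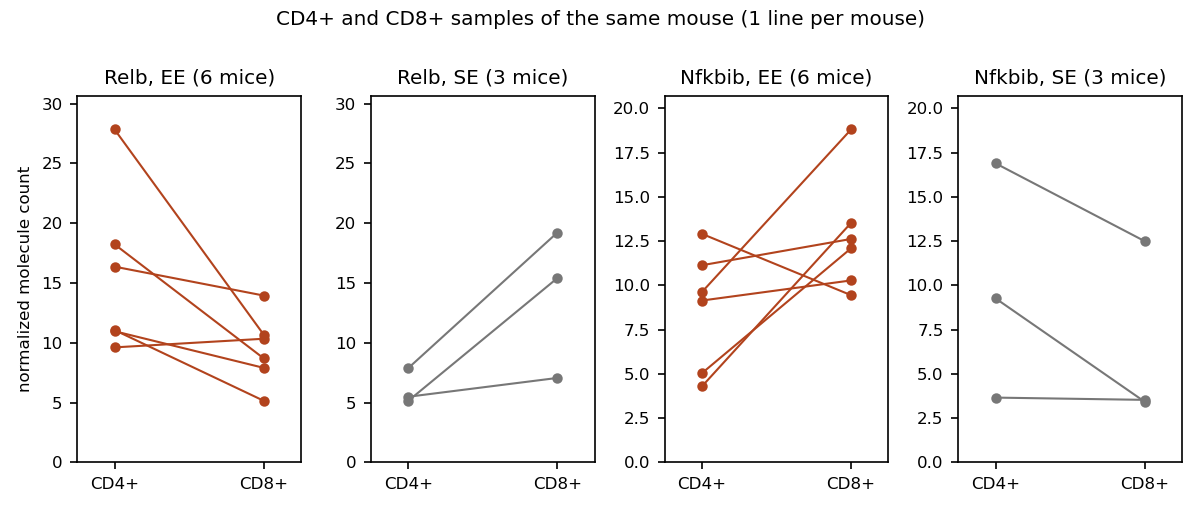
Normalized molecule counts (vertical axes, linear from 0) of Relb and Nfkbib in CD4+ and CD8+ T cells of the same mouse, a line for each of the 6 EE and 3 SE mice with both samples. Relb was higher in CD4+ cells in 5 of 6 EE mice and in 0 of 3 SE mice, and Nfkbib in 1 of 6 EE mice and in 3 of 3 SE mice.

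The partners and inhibitors of Relb had overlapping EE and SE ranges in CD4+ T cells. Of the 9 genes 1, Relb, had groups that did not overlap with EE above SE, and 17 of the 7939 genes fitted did so (0.214%), a share beside which the count of members says nothing, as Relb was selected on it. The other 8 genes had log2 differences from -0.21 (Nfkb1) to 0.56 (Nfkb2), with a median of -0.01, 4 above and 4 below 0, and the middle 80% of all genes lay between -0.54 and 0.53. In CD8+ T cells 0 of the 9 genes had every EE sample above every SE sample, against 40 of 7840 genes (0.51%).

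Rela, the p65 subunit that carries most of the activating function of the classical dimer (chromosome 19, 5637483 to 5648130, plus strand), had 13.6 ± 4.02 (SD, n = 6) normalized counts in CD4+ EE, 11.0 ± 2.83 (SD, n = 5) in CD4+ SE, 12.5 ± 4.65 (SD, n = 6) in CD8+ EE and 14.6 ± 5.06 (SD, n = 4) in CD8+ SE. In CD4+ cells it ran from 6.30 to 17.8 in EE and from 8.55 to 14.6 in SE, and the log2 difference was 0.25 with a standard error of 0.30. That difference lay between 0.16 and 0.43 with any 1 sample left out. In CD8+ cells the log2 difference was -0.22 (95% interval -0.83 to 0.38), with values from -0.07 (without SE mouse 2) to -0.47 (without SE mouse 3) when 1 sample was left out and -0.56 without both libraries with red cell RNA. Rel, the c-Rel subunit of lymphocytes (chromosome 11, 23736847 to 23770970, minus strand), had 9.33 ± 2.57 (SD, n = 6), 9.75 ± 2.84 (SD, n = 5), 7.23 ± 4.52 (SD, n = 6) and 8.25 ± 3.48 (SD, n = 4) in the same order. Its CD4+ log2 difference was -0.04 with a standard error of 0.32, and its CD8+ difference was -0.29 (95% interval -1.08 to 0.51). The CD8+ value was -0.03 without EE mouse 2, -0.07 without SE mouse 1, -0.17 without EE mouse 3, -0.49 without SE mouse 6 and -0.52 without EE mouse 1. Mouse 1 of each environment was the highest sample of its group for Rel in all 4 groups, at 13.9, 12.4, 14.9 and 12.8, and the numbers name different mice in EE and SE.

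The precursor genes Nfkb1 and Nfkb2 encode p105 and p100, which are cut to the DNA-binding p50 and p52 and act as inhibitors while uncut. Nfkb1 (chromosome 3, 135584655 to 135691547, minus strand) had 10.5 ± 4.81 (SD, n = 6) in CD4+ EE and 12.7 ± 6.69 (SD, n = 5) in CD4+ SE samples, with values from 3.78 to 17.2 and from 5.15 to 19.1. In CD8+ cells EE mice 1 to 6 had 14.0, 6.76, 11.3, 12.6, 9.49 and 12.0, and SE mice 1, 2, 3 and 6 had 6.85, 9.31, 5.30 and 9.61. Although 4 of the 6 EE samples lay above every SE sample, the groups overlapped, and the log2 difference of 0.46 (95% interval -0.18 to 1.09) did not pass the limma test (adjusted p = 0.9634). Without the 2 libraries with red cell RNA it was 0.28. Gm43430, a gene model of unsettled status, overlaps Nfkb1 on the same strand, so that reads of the pair may be split.

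Nfkb2, whose p52 product pairs with Relb (chromosome 19, 46304320 to 46312385, plus strand), gave between 1 and 13 molecules per sample. In CD4+ EE mice 1 to 6 it had 2.52, 4.291, 2.14, 2.23, 11.9 and 3.69 normalized counts, and in CD4+ SE mice 1, 3, 4, 5 and 6 it had 3.09, 3.66, 0.914, 1.90 and 2.25. EE mouse 5 stood apart with 13 molecules, and it was not the mouse with the highest Relb. The log2 difference was 0.56 with a standard error of 0.50, and without EE mouse 5 it was 0.27. In CD8+ cells the EE mean was 3.67 ± 2.18 (SD, n = 6) and the SE mean 4.39 ± 2.48 (SD, n = 4) (log2 difference -0.22, 95% interval -1.17 to 0.73), and the difference ran from -0.51 without SE mouse 1 to 0.0495 without SE mouse 6. Psd overlaps Nfkb2, and Gm15346 overlaps Ikbkb, on the opposite strand, so that reads from the shared stretches are uncertain.

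Among the IkB proteins, Nfkbia (IkB-alpha, chromosome 12, 55489410 to 55492647, minus strand) is an inhibitor that NF-kB itself induces. It gave the most molecules of the 9 genes, with 49.98 ± 11.2 (SD, n = 6) in CD4+ EE, 49.3 ± 11.9 (SD, n = 5) in CD4+ SE, 60.0 ± 15.8 (SD, n = 6) in CD8+ EE and 51.9 ± 18.2 (SD, n = 4) in CD8+ SE samples. Its CD4+ log2 difference between EE and SE was 0.02 with a standard error of 0.18, and the CD8+ one was 0.23 (95% interval -0.14 to 0.59, limma adjusted p = 0.9634), or 0.0947 without SE mouse 1 and 0.43 without SE mouse 6. Samples nevertheless differed, from 34.3 in CD4+ EE mouse 2 to 84.5 in CD8+ EE mouse 4, and within groups the variance was 2.38 to 7.04 times that of counting.

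Nfkbib (IkB-beta, chromosome 7, 28758251 to 28767512, minus strand) differed most between environments in CD8+ T cells among the 9 genes. EE mice 1 to 6 had 12.1, 13.5, 18.8, 12.6, 10.3 and 9.45 normalized counts, and SE mice 1, 2, 3 and 6 had 3.43, 6.52, 3.53 and 12.5. All 6 EE samples lay above the SE mean and 3 of them above every SE sample, the overlap coming from SE mouse 6. The title of that CD8+ sample ends in a number that lies apart from the run of the other titles. The means were 12.8 ± 3.31 (SD, n = 6) and 6.49 ± 4.251 (SD, n = 4), a log2 difference of 1.01 (95% interval 0.33 to 1.68, fold 2.01), which was not significant after adjustment over all genes (limma, adjusted p = 0.6797). The difference lay between 0.81 and 1.34 with any CD8+ sample left out, and was 0.89 without the 2 libraries with red cell RNA, 1 in each environment. In CD4+ cells the mean of Nfkbib was 8.69 ± 3.39 (SD, n = 6) for EE against 9.87 ± 4.78 (SD, n = 5) for SE, with a log2 difference of -0.12 with a standard error of 0.36.

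Within the same mouse, Nfkbib was lower in CD4+ than in CD8+ cells of 5 of 6 EE mice and higher in all 3 SE mice. The SE margin was as small as 0.128 normalized counts in 1 of those mice, less than a molecule. Averaged over the environments the CD4+ minus CD8+ log2 difference was 0.00 (95% interval -0.50 to 0.50). Nfkbib shares 778 bases with Sirt2 on the opposite strand, and the study names default parameters of the counting tool without a strand setting, so that reads from the shared stretch are uncertain.

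Nfkbie (IkB-epsilon, chromosome 17, 45555703 to 45563169, plus strand) had 5.13 ± 3.84 (SD, n = 6) in CD4+ EE and 4.28 ± 2.05 (SD, n = 5) in CD4+ SE samples. For CD8+ cells the means were 2.87 ± 1.93 (SD, n = 6) under EE and 4.72 ± 2.24 (SD, n = 4) under SE, with 0 molecules in EE mouse 6. The CD8+ log2 difference of -0.71 had the widest interval of the 9 genes, -1.72 to 0.31 (limma adjusted p = 0.9634), and without the 2 libraries with red cell RNA, which include EE mouse 6, it was -0.12. Without EE mouse 6 alone it was -0.36. The kinase gene Ikbkb (chromosome 8, 22659212 to 22706589, minus strand) was the most even of the set, with means of 20.6 ± 6.12 (SD, n = 6), 21.9 ± 5.42 (SD, n = 5), 21.0 ± 3.63 (SD, n = 6) and 21.6 ± 5.63 (SD, n = 4) in CD4+ EE, CD4+ SE, CD8+ EE and CD8+ SE samples. Its log2 differences were -0.09 in CD4+ cells and -0.01 in CD8+ cells (95% interval -0.48 to 0.46, and -0.23 without the libraries with red cell RNA), and the highest of its 4 means was 1.06 times the lowest.

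In the CD8+ comparison of environments, 0 of the 9 genes had an adjusted p under 0.05 with limma, edgeR or DESeq2, and this was so for 0 of 7840 genes (0%) with limma. At an unadjusted limma p under 0.05 there were 1 of 9 (Nfkbib) and 413 of 7840 genes. In the comparison of CD4+ with CD8+ T cells, 0 of 9 (Relb, whose CD4+ values selected it, among them) passed with each tool, against 349 of 7938 genes (4.4%) with limma, 185 of them higher and 164 lower in CD4+ cells. At an unadjusted p under 0.05 there were 0 of 9 and 1176 of 7938. The 9 CD4+ minus CD8+ log2 differences ran from -0.23 (Nfkb2) to 0.37 (Rel, 95% interval -0.15 to 0.88), with a median of -0.01, and their intervals reached from -0.91 to 0.95. For Nfkbia, the most precise of them, the difference was -0.15 (95% interval -0.42 to 0.12) and for Ikbkb -0.01 (95% interval -0.35 to 0.32). With 1 sample left out, the Nfkbia value ran from -0.21 to -0.0446. The B cell marker sum was higher in all CD4+ samples but that of SE mouse 1 (41.2) than in any CD8+ sample, and its part in these differences was not tested. The plot of differences with intervals sets the 3 comparisons side by side. The CD4+ and CD8+ samples of 1 mouse share that animal.

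**Figure D3:**
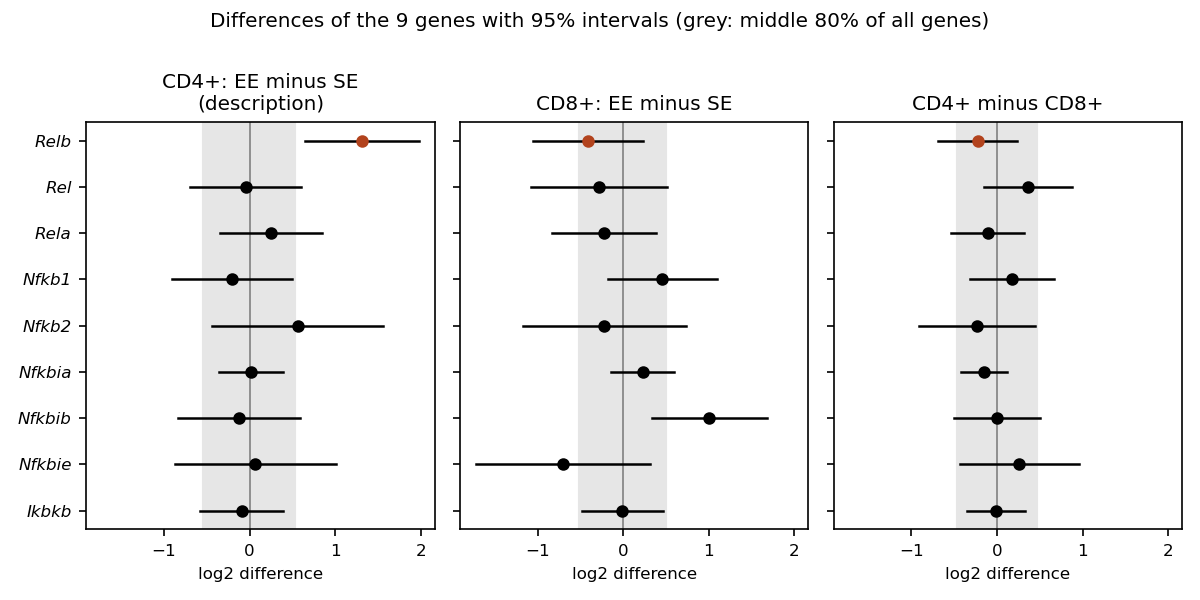
Log2 difference (horizontal axes, on log2(normalized count + 1)) with its 95% interval for each gene in the CD4+ comparison of EE with SE, the CD8+ comparison and CD4+ minus CD8+. The intervals of the CD4+ comparison of EE with SE are a description and no test, and that of Relb takes no account of its selection. The grey band holds the middle 80% of all genes; Relb in CD4+ cells, by which the set was selected, is at 1.31, Nfkbib in CD8+ cells at 1.01, and the CD4+ minus CD8+ values lie between -0.23 and 0.37.

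Relb was set against each of its partners and inhibitors from mouse to mouse, with each environment centred on its mean so that the selecting difference was taken out. Over 11 CD4+ samples Pearson's r ran from -0.28 (Nfkb1) to 0.23 (Rela), and over 10 CD8+ samples from -0.05 (Nfkb2) to 0.63 (Ikbkb). None of the 16 relations passed adjustment (permutation tests, adjusted p from 0.976 to 0.99 for Pearson and from 0.901 to 0.99 for Spearman). The highest, Relb with Ikbkb in CD8+ cells, had r = 0.63 (permutation p = 0.0938) and rho = 0.59 (permutation p = 0.113), and r = 0.54 without the 2 samples farthest from the median of Relb. With its p52 precursor Nfkb2, Relb had r = -0.26 in CD4+ (permutation p = 0.507) and r = -0.05 in CD8+ cells (permutation p = 0.885).

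As a description without a test, the genes with a pattern most like that of Relb over all 21 samples, among 2726 genes with a mean above 10, were Ccs (r = 0.67), Bnip2 (r = 0.67), Clns1a (r = 0.66), Polr2e (r = 0.62) and Acat1 (r = 0.62). Over the 10 CD8+ samples alone they were Gbp4 (r = 0.95), Clns1a (r = 0.84), Ccs (r = 0.82), Copa (r = 0.81) and Ptbp3 (r = 0.81). Clns1a and Ccs stood on both lists, which share the CD8+ samples. The other 8 genes of the NF-kB set had r between -0.20 (Nfkb1) and 0.26 (Rela) over the 21 samples. All these points share the size factor and depth of their sample. Groups were not centred here, so that over the 21 samples the CD4+ difference that selected Relb enters r. The named genes are the highest of all those compared, so that their r is high by choice.

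The other genes of the pathway were taken from lists by role. The list of the alternative arm pools genes that promote it with genes that restrain it, so that its counts and medians give no direction for the arm. Of this list 9 of 12 genes were fitted. In CD4+ cells 5 were above and 4 below 0 with a median log2 difference of 0.12. The genes of it with a mean above 10 were the TNF receptor family member Cd27 at 0.12 (standard error 0.16) and the ubiquitin ligase Birc3 at -0.05 (standard error 0.35). In CD8+ cells 0 of 9 passed the limma test (4 above and 5 below 0, median -0.15). The adaptors Traf2, at 1.08 (95% interval 0.17 to 2.00), and Traf3, at -1.0019 (95% interval -1.84 to -0.16), had an unadjusted p under 0.05 and are named after their values were seen. Their limma adjusted p was 0.9233. Between CD4+ and CD8+ cells 0 of 9 passed (7 above and 2 below 0, median 0.14). Lymphotoxin beta receptor, Ltbr, was not analysed here.

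The classical arm, from the T cell signalling proteins Bcl10 and Malt1 to the linear ubiquitin ligase, had 16 of 17 genes fitted. In CD4+ cells 7 were above and 9 below 0 (median -0.03), and the values ran from -0.84 (Tab1) to 0.70 (Tradd). Of its genes with a mean above 10, the highest were Sharpin, a subunit of that ligase, at 0.54 (standard error 0.28) and Bcl10 at 0.13, and the lowest Rbck1, another subunit, at -0.08 and Ube2n at -0.07. In CD8+ cells 3 were above and 13 below 0, with a median of -0.22, where 49.0% of all genes were above 0 and their median was -0.01. The list had no call in CD8+ cells (0 of 16 by limma, 1 at an unadjusted p under 0.05) or in CD4+ against CD8+ cells (0 of 16, median -0.01).

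Of the other IkB proteins and brakes, 14 of 16 were fitted. In CD4+ cells 7 were above and 7 below 0 (median 0.03), from -1.36 (Tnfaip3) to 0.92 (Nkiras1). Tnfaip3, which encodes the ubiquitin-editing enzyme A20 and is named after its values were seen, had 1.26, 0, 0, 0, 3.66 and 2.77 normalized counts in EE mice 1 to 6 and 7.21, 1.83, 3.66, 5.70 and 2.25 in SE mice 1, 3, 4, 5 and 6. The groups overlapped, at 7 molecules or fewer per sample, and the log2 difference had a standard error of 0.57. Among genes with a mean above 10 were Traf3ip3 at 0.34 and the deubiquitinases Cyld and Otulin, which strip ubiquitin chains from the pathway, at -0.31 and -0.03. By limma, 0 of 14 passed in CD8+ cells (8 above and 6 below 0) and 0 of 14 in CD4+ against CD8+ cells (4 above and 10 below 0).

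Of 24 known NF-kB targets that are not members of the set, 18 were fitted in CD4+ cells, 13 above and 5 below 0, with a median log2 difference of 0.28, where 50.1% of all genes were above 0. The values ran from -1.36 (Tnfaip3) to 1.09 (Cd83). The early activation antigen Cd69 averaged 21.6 ± 5.56 (SD, n = 6) in EE against 15.2 ± 2.83 (SD, n = 5) in SE (log2 difference 0.46, standard error 0.25), and the mitochondrial superoxide dismutase Sod2 was at 0.34, while the lymph node homing receptor Ccr7 was at -0.13 and the transcription factor Irf1 at -0.12. These values come from the comparison and samples that selected Relb, in which the antigen-experienced marker sum was also higher in EE, and they were not tested. In CD8+ cells, 0 of 17 passed the limma test, 10 were above and 7 below 0, and the median was 0.03.

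Between the populations 1 of 4 ligands and 2 of 17 targets fitted had an adjusted p under 0.05, where 4.4% of all genes had. Of these, Cd40lg and Bcl2a1d passed the filter on low values only through the CD4+ samples in which they were high, so that they had to differ and their values are a description. Cd40lg, the CD40 ligand of helper T cells and a ligand for the alternative arm, was higher in CD4+ cells, with 23.0 ± 6.24 (SD, n = 11) normalized counts against 0.258 ± 0.417 (SD, n = 10), a log2 difference of 4.287 with a standard error of 0.29. It is also a marker of the CD4 lineage. Icam1, an adhesion molecule, was lower in CD4+ cells, with 4.08 ± 4.26 (SD, n = 11) against 8.216 ± 4.06 (SD, n = 10), a log2 difference of -1.30 with a standard error of 0.38 (limma adjusted p = 0.02645), and the ranges, 0 to 13.9 and 3.53 to 16.9, overlapped. Bcl2a1d, a survival gene of the BCL2 family, was higher in CD4+ cells, with 4.69 ± 3.58 (SD, n = 11) against 0.429 ± 1.36 (SD, n = 10) and a log2 difference of 1.95 with a standard error of 0.41. It has near-identical copies that can share its reads, and the B cell marker sum was also higher in CD4+ samples. The remaining ligands fitted, among them the lymphotoxin gene Ltb and Tnfsf8, did not pass.

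**Figure D4:**
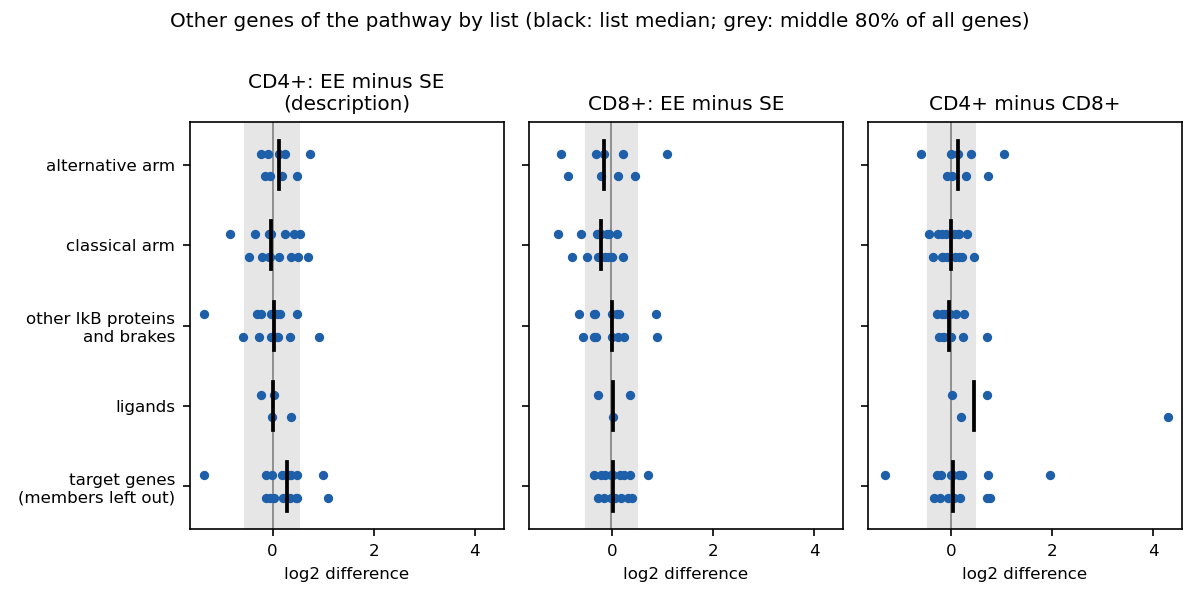
Log2 differences (horizontal axes, on log2(normalized count + 1)) of the other genes of the pathway by list in the 3 comparisons. Points are genes, black bars are list medians and the grey band holds the middle 80% of all genes; in CD8+ cells 13 of 16 classical-arm genes were below 0, and Cd40lg is the ligand at 4.287 in CD4+ minus CD8+.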

How the data were processed

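Per the study's methods, the authors trimmed and filtered Ion Proton reads with cutadapt and aligned them with STAR 2.4.0a to mm10. They counted unique molecules per gene on an Ensembl GRCm38 gene model. They state that CD4+ samples with RNA of CD8a and CD8b were excluded as impure, though some deposited CD4+ samples hold a few molecules of both. They also removed genes of low abundance and scaled by depth with DESeq2. The deposited signal is thus a molecule count divided by a size factor, in a table of 12994 genes and 21 samples. Dividing the values of a sample by the smallest one above 0 gave whole molecules for 100% of the values (tolerance 1e-05). The totals limit precision, and p-values measure the spread between mice of 1 cage per environment.

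Comparisons used limma 3.58.1 (R 4.3.3, trend) on log2(value + 1) of genes whose mean exceeded 2, with Benjamini-Hochberg adjustment over all genes and a threshold of 0.05. CD4+ was compared with CD8+ over the 4 groups. Relations between genes used 100000 permutations. Alternatives were a pseudocount of 0.5, no filter, a mean above 10, equal totals, all 21 samples in the fit, a replicate block, EE or SE only, each sample left out, and edgeR 4.0.16 and DESeq2 1.42.0 on the recovered molecules. The count tests called 0 genes (edgeR) and 0 genes (DESeq2) in the CD8+ comparison of environments and 365 and 324 between populations. Leaving out the 2 libraries with red cell RNA was chosen after seeing the data. The fits were also run on simulated counts, with changes planted only in genes with a mean above 10. That run does not cover genes with fewer counts, such as Nfkb2 and Nfkbie.

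CD4+ and CD8+ samples of the same number and environment come from 1 mouse per the labels. Deviations of such pairs from their group means had r from -0.01 to 0.04 (9 pairs), and the mouse was used as the replicate block between populations. The 9 genes and all lists were chosen with earlier results of these data known. Named were all 9 genes, list genes past the threshold, the 2 highest and 2 lowest per list in CD4+ cells among genes with a mean above 10, and the 5 genes most like Relb. Positions are from GENCODE M21, promoters from RefSeq (GRCm38.p6). Python 3.11.15 with NumPy 2.4.6, pandas 2.3.3, SciPy 1.17.1 and Matplotlib 3.10.9 was used elsewhere.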

Additional observations from a re-analysis of the deposited data

Results flagged for a closer look

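Nfkb2 in CD4+ T cells of EE mouse 5 was far from the other samples of its group, with a normalized count of 11.9 (13 molecules) where the other 5 EE samples had 2.14 to 4.291. It was the only such sample in 36 tests of a gene in a group, and since chance alone flags about 1 in 20 tests, 1 of 36 is no more than chance gives. In the same sample Relb was 11.0, Nfkbie 8.23 and Ikbkb 26.5, all inside the range of the other EE samples.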

How the results depend on the processing

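The number of the 9 genes past the adjusted threshold was 0 in the CD8+ comparison of environments and 0 between populations under every alternative run, each sample left out included. Over all genes, the CD8+ count of 0 became 3 without a filter on low values and 2 with the replicate block, and lay between 0 and 3 with each sample left out. The count between populations, 349, became 216 with a mean above 10, 227 with EE samples only and 105 with SE samples only, where fewer genes or samples entered. It was 329 with the mouse as a replicate block and 297 without the 2 libraries with red cell RNA. The number of an EE and an SE mouse is only a shared number (mean r of deviations 0.01 in both populations).

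Of the log2 differences of single genes, 15 of 231 changed sign under alternatives other than leaving out a sample (13 between populations and 2 in the CD4+ comparison, a description) and 45 of 378 with a sample left out (22 between populations, 7 in the CD8+ and 16 in the CD4+ comparison), and the values reported for these genes were not past the threshold and were at most 0.26 in size. In the CD4+ comparison the replicate block gave 0.0429 for Rel and 0.0332 for Nfkbib, and the samples left out turned the sign of Rel, Nfkb1, Nfkbia, Nfkbib, Nfkbie and Ikbkb. With the replicate block, CD4+ minus CD8+ became 0.10 for Relb, 0.0795 for Rela and -0.19 for Nfkbib. With EE samples only it became 0.64 for Relb, 0.13 for Rela, -0.16 for Nfkb1, 0.16 for Nfkb2 and -0.56 for Nfkbib. With SE samples only it was -1.09 for Relb, 0.57 for Nfkbib, -0.62 for Nfkb2, 0.51 for Nfkb1 and -0.34 for Rela, and became -0.13 for Nfkbie and 0.0284 for Ikbkb, and Ikbkb was at 0.0045 with equal totals and 0.0024 with DESeq2. Nfkbib was at -0.13 without the red cell libraries. With each sample left out, Nfkbib lay between -0.10 and 0.17 and Ikbkb between -0.12 and 0.0426, and in the CD8+ comparison of environments Nfkb2 lay between -0.51 and 0.0495 and Ikbkb between -0.22 and 0.0745. Between populations the main value weighs EE and SE equally, whereas the replicate block rests on 6 EE and 3 SE mice. Beyond this difference of weights, the cause of the sign changes was not tested. The CD4+ difference of Relb, a description, lay between 1.13 and 1.5003 over all settings. At a handful of molecules per sample for Nfkb2 and Nfkbie, counting limits what can be resolved, and the CD8+ SE group had 4 samples.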
